A study of Mus musculus with 16 samples.

Results

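Mouse embryonic fibroblasts that lack Arkadia were compared with the same null cells after a retrovirus had returned wild-type Arkadia to them. The comparison uses 5 of the 16 libraries of the series: 3 from null cells carrying the retrovirus that the labels call rvCAG-ArkWT, collected before TGFβ and after 1 h and 4 h of it (rvWT), and 2 from uninfected null cells collected before TGFβ and after 1 h (null B). The members were taken by label, and rvWT at 4 h has no uninfected partner in its own set. TGFβ was given at 2.5 ng/ml to subconfluent cells grown in serum-containing medium, and poly(A) RNA was sequenced with a strand-keeping kit. Every rvWT and null library shares the Ark-/- genotype. The other groups serve as reference: null cells with a SUMO-interacting-motif mutant of Arkadia (sim, 3 libraries at 0, 1 and 4 h), and, from a separately collected set, uninfected null cells (null A, 4 libraries) and Ark+/+ cells (WT, 4 libraries), both at 0, 1, 4 and 16 h of TGFβ. No line infected with an empty retrovirus was analysed here; infection goes together with Arkadia in rvWT, and their effects cannot be told apart. Each line has 1 library per time, times stand in for repeats. Nothing in the labels says that libraries come from separate cultures, and the p-values therefore rest on library-to-library spread that may be technical. Whether the infected cells were a pool or a clone is not given in the sources used here.

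Arkadia is the E3 ubiquitin ligase encoded by Rnf111. It amplifies TGFβ and Nodal signalling by marking the inhibitory SMAD7 and the repressors SKI and SKIL for degradation, so that activated SMAD2 and SMAD3 can act on their target genes. Fibroblasts respond to TGFβ with matrix, protease-inhibitor and contractile genes, which makes them a common test system for the ligase. Its SUMO-interacting motifs let it bind SUMO-modified proteins.

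Rnf111, the targeted gene, was at 110.0, 102.5 and 125.8 FPKM (fragments per kilobase of transcript, scaled to the size of the library) in the rvWT libraries at 0, 1 and 4 h, and at 0.527 and 0.435 FPKM in the null B libraries. The groups did not overlap, and the difference was 6.21 ± 0.06 (SE) on the log2(FPKM + 1) scale (limma adjusted p = 8.74e-06). It sets 3 libraries against 2, but the fit for rvWT against null B held 8 libraries. The 3 sim libraries share in its estimates of the spread and of the time effects. Ark+/+ cells held 14.5 to 15.1 FPKM in their 4 libraries, so the returned gene stood above the level of the wild-type line. The sim line held 56.0 to 62.1 FPKM. The MEF identity was checked on 11 measured fibroblast genes: vimentin (Vim), the intermediate filament of mesenchymal cells, was at 1756 to 1906 FPKM in rvWT and at 1230 and 1262 FPKM in null B, and the 11 genes summed to 4916 to 5402 FPKM in rvWT and to 4759 and 5013 FPKM in null B. Among them, 7 were higher in rvWT, among them Prrx1 and Thy1, and Cd34 was lower.

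In all, 4230 of 10958 genes tested (38.6%) passed an adjusted p below 0.05: 1756 (16.0%) were higher in rvWT and 2474 (22.6%) were lower. These shares are the background for every count below. The split depends on scaling, with 2414 higher and 2035 lower after quantile normalization, while median-ratio scaling gave 2102 and 2107. Groups without overlap were common. All rvWT libraries lay above both null B libraries for 20.8% of tested genes and below both for 32.1%. They lay above all 5 null libraries of both sets at 0 to 4 h for 13.1%, and below all 5 for 18.0%. Differences of 1 or more in size on the log2 scale numbered 198 among the higher genes (1.81% of those tested) and 453 among the lower ones (4.13%). The count rests on few libraries: it was 1946 without null B at 0 h, 2006 without null B at 1 h, 2595 without rvWT at 0 h and 2703 without rvWT at 1 h. The uninfected null cells of the other set give a second reference. At 0 h null A and null B differed by a median of 0.220 on the log2 scale, close to the 0.232 between rvWT and null B, but 251 genes were apart by 1 or more in the first pair and 808 in the second. Of 633 genes called with a size of 1 or more and measured in both, 596 (94.2%) were also called in the same direction when null A replaced null B, and 0 were called in the opposite direction. For all called genes the share was 68.1%, and 3.12% were called in the opposite direction.

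Several of the largest falls were in genes known from mesothelium and epithelia. Upk3b, a uroplakin that marks mesothelium, was at 76.5, 73.2 and 65.6 FPKM in rvWT, at 489.4 and 484.3 FPKM in null B, and at 301.3 to 340.7 FPKM in null A at 0 to 4 h. The groups were far apart and the difference was -2.68 ± 0.05 (adjusted p = 2.21e-05). Msln, the mesothelial surface protein mesothelin, was at 19.9, 19.6 and 20.8 FPKM against 114.6 and 116.1 FPKM (-2.49 ± 0.05, adjusted p = 3.31e-05). Aldh1a1, a retinoic-acid-forming enzyme, was at 49.96, 43.2 and 30.3 FPKM against 275.9 and 254.7 FPKM, and its relative Aldh1a2 fell by a like amount (log2 differences of -2.51 and -2.77). Npnt, a basement-membrane ligand for integrins, was at 7.51, 7.92 and 7.33 FPKM against 61.0 and 60.4 FPKM (-2.79 ± 0.08). Bcam, Scel and Tspan8, with differences of -2.97, -2.86 and -2.96, also belonged to the 15 largest falls. A list of mesothelial markers put together after these values had been seen had 18 tested genes, and 18 fell with a median of -2.23; its count therefore describes how it was chosen. Its summed level was 403.9 to 432.4 FPKM in rvWT, 1645 and 1657 FPKM in null B and 1063 to 1124 FPKM in null A, and 17 of its genes also fell against null A. Fewer cells of a type and less RNA per cell cannot be told apart in such bulk libraries.

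Of 16 genes of epithelia and cornified layers, 12 fell and 4 rose, with a median of -0.84, and 2 rose without null B at 0 h. Dsp, the desmosomal protein desmoplakin, and Perp, a desmosomal p53 target, were among the falls (-1.86 and -2.28). Cdsn moved the other way: this adhesion protein of cornified skin was at 101.2, 102.3 and 88.6 FPKM in rvWT and at 1.93 and 2.36 FPKM in null B (5.04 ± 0.07, adjusted p = 1.44e-05). Among the 15 largest rises it came after Rnf111 alone. Krt14, a basal keratin, rose from 0.243 and 1.24 FPKM in null B to 4.33, 13.2 and 45.3 FPKM in rvWT (2.41 ± 0.15).

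**Figure D1:**
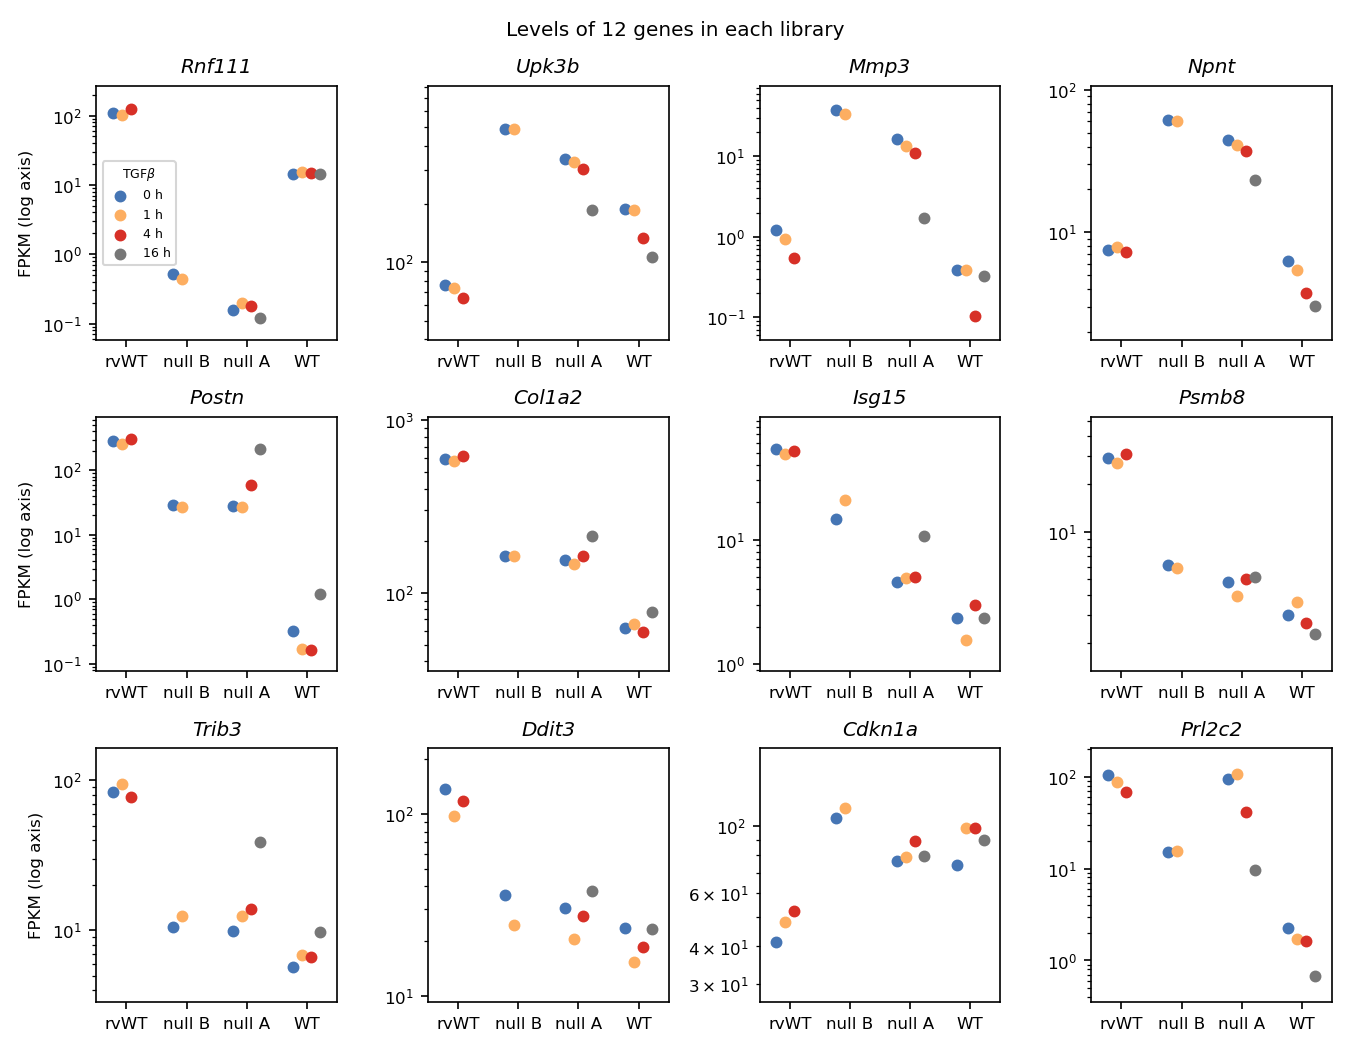
Levels of 12 genes in every library of the rvWT, null B, null A and WT groups, in FPKM on a log axis, 1 point per library coloured by hours of TGFβ. Rnf111 is above 100 FPKM in rvWT and under 1 FPKM in both null groups; Upk3b, Mmp3 and Npnt are lower in every rvWT library than in null libraries at 0 to 4 h, Postn, Col1a2, Psmb8 and Trib3 are higher, and Prl2c2 overlaps null A.

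Several complement genes were lower in rvWT, while the protease list was split. Serping1, the C1 inhibitor, was at 1.74, 1.73 and 1.22 FPKM in rvWT and at 20.15 and 18.6 FPKM in null B (-2.88 ± 0.08, adjusted p = 4.28e-05). C3, the central complement protein, was lower by -1.92. In all 5 of 9 tested complement genes fell and 2 rose, C1qtnf6 and Masp1, by 0.39 and 0.36; without null B at 0 h no rise was called. The first of the 15 largest falls was that of Mmp3, the matrix protease stromelysin, at 1.21, 0.927 and 0.538 FPKM against 37.0 and 33.3 FPKM, and 10.95 to 16.4 FPKM in null A (-4.12 ± 0.08, adjusted p = 3.72e-05). Mmp13, a collagenase, and Mmp2, a gelatinase, fell by 1.88 and 1.28 on the log2 scale. The protease inhibitors Serpine2 and Timp3 rose. Serpine2, protease nexin 1, was at 69.0, 62.9 and 51.3 FPKM against 13.7 and 13.1 FPKM (2.201 ± 0.05). Of the 17 protease and inhibitor genes tested, 7 rose and 5 fell, with a median of -0.011, and 3 fell without null B at 0 h.

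The matricellular proteins, secreted regulators that sit in the matrix without building it, were mostly higher in rvWT. Of 16 tested, 13 rose and 1 fell, with a median of 0.89, and the counts were the same against null A. Without rvWT at 0 h 10 rose, and without it at 1 h 11 did, with 1 fall each. With the hour of TGFβ left out of the fit 7 rose and 0 fell. Postn (periostin) was at 285.7, 257.7 and 306.9 FPKM in rvWT, at 29.2 and 26.6 FPKM in null B and at 28.1, 27.0 and 59.5 FPKM in null A. It did not overlap either null group at 0 to 4 h and rose by 3.24 ± 0.05 (adjusted p = 2.03e-05). Tgfbi, a TGFβ-induced adhesion protein, was at 83.9, 98.7 and 98.4 FPKM against 21.3 and 26.0 FPKM (1.88 ± 0.07). Fn1 (fibronectin) was at 671.3, 668.8 and 906.2 FPKM against 319.2 and 337.3 FPKM (1.04 ± 0.06). Matn2 and Wisp2 rose by 2.10 and 2.03, and Cyr61, a CCN family member, fell by 0.94.

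Among collagens the response was uneven. Col1a2, one of the chains of type I collagen, was at 592.5, 578.9 and 616.8 FPKM in rvWT and at 162.5 and 162.9 FPKM in null B (1.84 ± 0.05, adjusted p = 4.25e-05). Its partner chain Col1a1 was at 1960, 1988 and 2477 FPKM against 1040 and 1127 FPKM and rose by 0.87 ± 0.06; the difference between the rises of these chains was not tested. Col5a1 rose by 0.76, Col11a1 fell by 0.57 against null B but was higher by 0.67 against null A, and 10 of 22 genes of fibrillar collagens and their processing rose while 4 fell. Without rvWT at 0 h 6 rose and 2 fell, and without null B at 0 h 6 rose and 1 fell; against null A 15 rose and 1 fell. Of the basement-membrane and network list, 6 of 15 fell and 2 rose, and 1 rose without any 1 of rvWT or null B at 0 or 1 h. Lama5 and Lamb2, laminin chains, were at 8.04 to 9.03 and 27.8 to 33.6 FPKM in rvWT against 35.6 to 40.1 and 84.0 to 86.8 FPKM in null B (-2.06 ± 0.05 and -1.33 ± 0.05). Col6a3, a beaded-filament collagen chain, rose the most in that list, from 2.92 and 3.17 FPKM to 24.7, 24.2 and 44.1 FPKM (2.67 ± 0.06). In the elastic-fibre and proteoglycan list 7 of 16 rose and 3 fell. Fbn1, the microfibril protein fibrillin, was at 23.03, 22.8 and 34.9 FPKM against 5.27 and 6.20 FPKM (1.86 ± 0.09), and Bgn (biglycan) rose by 1.54. Contractile genes split: Acta2, smooth muscle actin, rose by 0.42 ± 0.07 and Tagln, an actin-binding protein of the same cells, was lower by -1.36 ± 0.11, with 8 of 19 higher and 4 lower. The 8 became 4 without rvWT or null B at 0 h and 3 without null B at 1 h, and the 4 became 2 without either null B library.

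**Figure D2:**
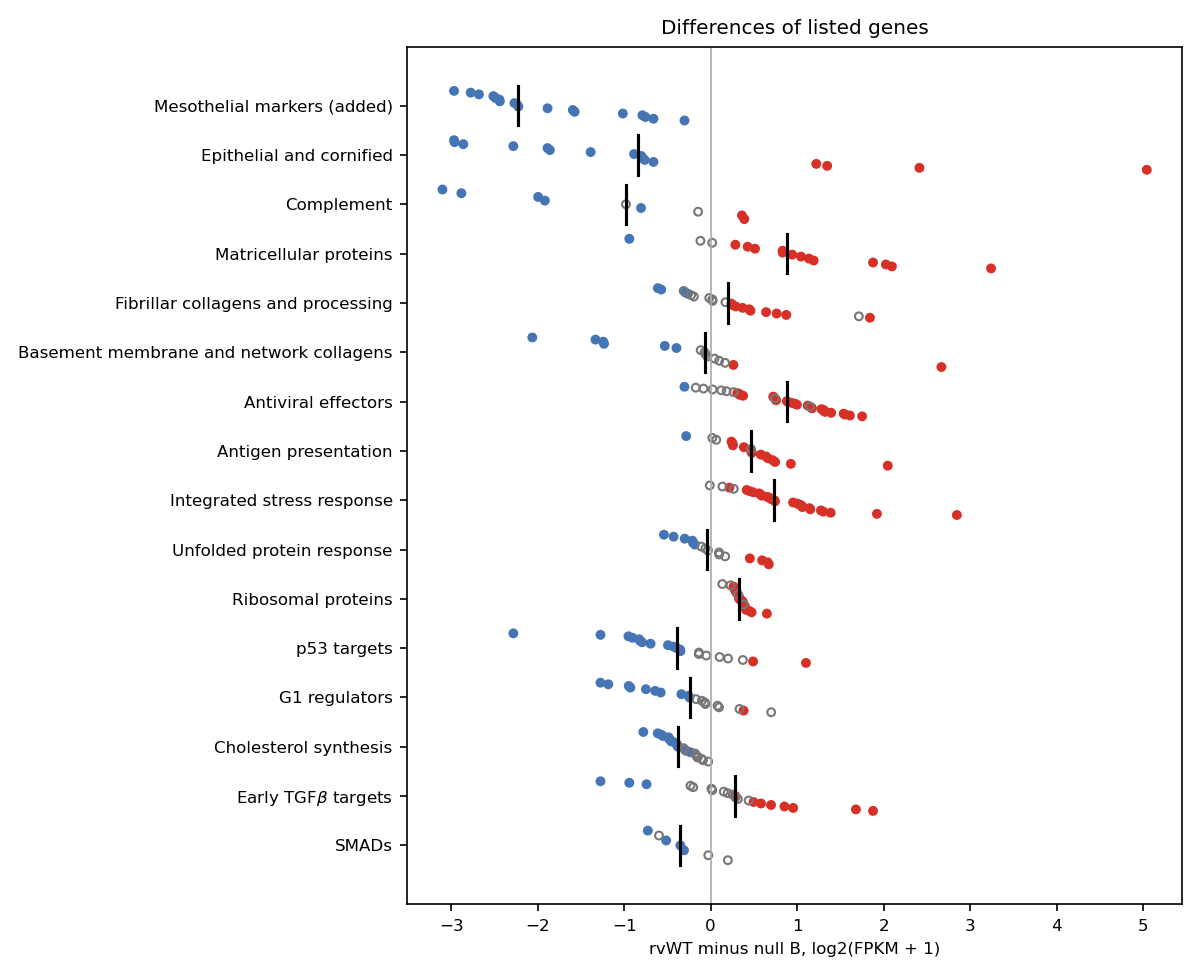
Differences between rvWT and null B on the log2(FPKM + 1) scale for the tested genes of 16 lists, 1 point per gene, red where higher and blue where lower at an adjusted p below 0.05, open where not called; the bar is the list's median. The matricellular, antiviral, antigen-presentation and integrated-stress lists have medians of 0.89, 0.89, 0.47 and 0.74, and the mesothelial list, chosen after the values were seen, -2.23.

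Interferon-stimulated genes were higher in rvWT. Many of them carry an interferon-stimulated response element, the site through which interferon signalling acts, in their promoter. The 250 bases before the start site of 2 of them are printed because matches to the element, searched as GAAA, any 2 bases and GAAA on both strands, overlap there; capitals mark the matches (RefSeq, GRCm38.p6, 5′ to 3′).
Isg15 (chr4:156200819-156201068, minus strand): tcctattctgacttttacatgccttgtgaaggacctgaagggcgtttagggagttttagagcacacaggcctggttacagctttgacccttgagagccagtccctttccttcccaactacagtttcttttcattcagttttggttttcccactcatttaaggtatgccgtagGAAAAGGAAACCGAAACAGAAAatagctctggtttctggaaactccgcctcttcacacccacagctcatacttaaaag
Irgm1 (chr11:48871421-48871670, minus strand): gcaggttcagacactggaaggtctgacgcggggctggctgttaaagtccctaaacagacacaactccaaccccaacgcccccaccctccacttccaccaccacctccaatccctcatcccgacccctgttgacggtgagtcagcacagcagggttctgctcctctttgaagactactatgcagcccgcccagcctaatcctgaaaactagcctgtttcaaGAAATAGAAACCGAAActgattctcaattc
Isg15 has 3 overlapping matches, the outermost 78 and the innermost 66 bases before the start site, and Irgm1 has 2, at 30 and 24 bases. From 250 bases before to 50 after the start site, 16 of 29 antiviral genes with an entry held a match (55.2%), as did 5 of 15 antigen-presentation genes (33.3%); the share among all tested genes with an entry was 3.61% of 8116. A match describes letters and not a bound site.

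Isg15, the ubiquitin-like modifier of the interferon response, was at 53.9, 48.7 and 51.4 FPKM in rvWT, at 14.7 and 20.9 FPKM in null B, and at 4.62, 4.92 and 5.02 FPKM in null A. All rvWT libraries were above all null libraries at 0 to 4 h, and the difference was 1.54 ± 0.15 (adjusted p = 0.00137). Irgm1, an immunity-related GTPase that acts on pathogen vacuoles, was at 56.2, 76.1 and 115.0 FPKM against 22.2 and 29.6 FPKM (1.31 ± 0.06, adjusted p = 0.000146). Gbp2, Gbp3, Igtp, Irgm2 and Xaf1 rose by 0.94 to 1.31. Over the antiviral list, 25 of 34 rose and 1 fell (Ifitm2, an entry-restriction factor, by 0.30, though it was higher by 0.40 against null A and not called without any 1 of rvWT or null B at 0 or 1 h or sim at 0 h), with a median of 0.89; against null A 31 rose with a median of 1.53, so the size depends on which null cells are used. Of the 34 genes 7 fall below 0.1 FPKM in at least 1 of the 16 libraries and reach 5 FPKM or more in another. Libraries of WT and sim cells count here, so such a gene may be near 0 throughout a line. With such genes left out 18 rose. Without rvWT at 0 h 22 rose, and without it at 1 h 23 did. The summed level of the list differed little from null B. It was 1809 to 2008 FPKM in rvWT, 1719 and 1773 FPKM in null B and 870.4 to 938.1 FPKM in null A at 0 to 4 h. Of the 34, 7 lie on chromosome 11 and 3 on chromosome 19, and of the 24 elsewhere than chromosomes 10, 11 and 19, 16 rose.

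Antigen presentation moved with it. Psmb8, an immunoproteasome subunit, was at 29.1, 27.3 and 30.9 FPKM in rvWT and at 6.19 and 5.94 FPKM in null B (2.05 ± 0.07, adjusted p = 7.97e-05). H2-K1, a classical class I heavy chain, was at 64.4, 60.0 and 69.5 FPKM against 40.4 and 37.7 FPKM (0.66 ± 0.07), and Tap2, a chain of the peptide transporter, rose by 0.72. Of 17 tested, 13 rose and 1 fell, which became 7 and 0 without null B at 1 h, and the fall was also lost without rvWT at 0 or 1 h or without null B or sim at 0 h; against null A 15 rose. Class I genes are near-identical copies, and how reads were split between them is not given in the sources used here. Cd74, the class II invariant chain, rose from 0.988 and 1.08 FPKM to 7.45, 7.71 and 9.48 FPKM (2.08 ± 0.06). Of 15 interferon-signalling genes 3 rose and 2 fell, a share near that of all genes; 1 fell without null B at 0 h, and against null A 5 rose and 0 fell. Among them were Irf1, higher by 0.46, and the receptor chains Ifnar2 and Ifngr2, lower by -0.38 and -0.42, of which Ifnar2 stood 0.10 higher against null A. Among nucleic acid sensors 5 of 12 rose, with Dhx58 and Trim25 at 1.06 and 0.73, and Tmem173 (STING) lower (-0.48 ± 0.08). Leaving out rvWT or null B at 0 h or at 1 h, or sim at 0 h, gave 3 rises, and the fall of Tmem173 was lost without either null B library.

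Chemokines rose too. Cxcl12, a stromal attractant of CXCR4+ cells, was at 312.1, 296.2 and 187.1 FPKM in rvWT against 84.7 and 85.7 FPKM (1.77 ± 0.10). Cx3cl1 (fractalkine) was at 36.7, 71.1 and 139.0 FPKM against 12.01 and 24.3 FPKM and 36.1 FPKM in null A at 4 h (1.53 ± 0.05, adjusted p = 5.61e-05). Cxcl10 and Ccl5, both interferon-responsive, rose by 1.18 and 1.40. Tnfrsf11b, the decoy receptor osteoprotegerin, rose from 0.485 and 0.718 FPKM to 5.64, 9.25 and 20.5 FPKM (2.37 ± 0.10). In all 9 of 18 cytokine and chemokine genes rose and 1 fell, and the fall was lost without rvWT at 0 or 1 h or null B at 1 h. Of the NF-kB list 3 rose and 3 fell out of 13, with 0 of either without null B at 0 h or at 1 h and 0 or 1 rise without any 1 rvWT library, while Icam1, an adhesion molecule of that list, was at 0.312, 0.365 and 0.189 FPKM in rvWT and at 4.07 and 4.12 FPKM in null B (-1.95 ± 0.10, adjusted p = 0.000193).

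The integrated stress response, in which phosphorylation of eIF2α lets ATF4 switch on amino-acid genes, was higher in rvWT through most of its listed genes. Some of its target genes carry a CEBP-ATF response element. Matches to TGATGNAA on both strands are in capitals in the 250 bases before the start site of 2 of them (RefSeq, GRCm38.p6, 5′ to 3′).
Asns (chr6:7693210-7693459, minus strand): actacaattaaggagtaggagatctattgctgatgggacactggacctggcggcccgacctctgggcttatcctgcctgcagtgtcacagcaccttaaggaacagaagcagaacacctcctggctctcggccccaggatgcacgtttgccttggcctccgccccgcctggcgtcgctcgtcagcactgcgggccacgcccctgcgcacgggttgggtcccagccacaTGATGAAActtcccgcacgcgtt
Chac1 (chr2:119350992-119351241, plus strand): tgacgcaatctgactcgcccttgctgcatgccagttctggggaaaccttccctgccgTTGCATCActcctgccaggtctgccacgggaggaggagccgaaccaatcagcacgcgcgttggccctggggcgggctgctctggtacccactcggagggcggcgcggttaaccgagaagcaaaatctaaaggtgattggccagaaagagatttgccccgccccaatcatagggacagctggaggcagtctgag
The Asns match lies 23 bases before the start site. The match of Chac1, 193 bases before it, is on the minus strand and is printed as the plus strand reads. Of the 26 listed genes with an entry, 10 held a match in the window from 250 before to 50 after the start site (38.5%), against 2.43% of 8116 tested genes.

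Trib3, a pseudokinase induced by ATF4 and CHOP, was at 83.8, 95.1 and 77.2 FPKM in rvWT, at 10.6 and 12.5 FPKM in null B and at 9.97, 12.4 and 13.98 FPKM in null A (2.85 ± 0.06, adjusted p = 3.72e-05). Ddit3, which encodes CHOP, was at 137.9, 98.1 and 118.1 FPKM against 35.9 and 24.7 FPKM (1.92 ± 0.07). Asns, asparagine synthetase, was at 170.9, 166.8 and 166.1 FPKM against 86.9 and 85.9 FPKM (0.95 ± 0.05). Chac1, a glutathione-degrading enzyme, was at 36.2, 32.9 and 51.0 FPKM against 25.8 and 18.5 FPKM (0.65 ± 0.09, adjusted p = 0.00349). In each of these genes all rvWT libraries lay above both null B libraries, as they did for 20.8% of tested genes. Amino-acid transporters and one-carbon enzymes were part of it: Slc7a5, Slc1a4 and Pck2 rose by 1.06, 1.301 and 1.004. Altogether 24 of 27 rose and 0 fell, with a median of 0.74 (adjusted p in the limma fit; at an unadjusted p below 0.05 48.5% of all genes passed in either direction). The count stayed at 20 or more without any 1 library and was 22, with 1 fall, against null A; 19 members lie elsewhere than chromosomes 10, 11 and 19, and 17 of those rose. The unfolded protein response, with its chaperones, had another balance: 4 of 16 rose and 6 fell. Herpud1 and Xbp1 rose by 0.67 and 0.66, and Calr, the chaperone calreticulin, was at 401.7, 385.2 and 457.8 FPKM against 590.1 and 576.1 FPKM (-0.54 ± 0.06). The rises were 2 without null B at 0 h, and the falls were 1 to 2 without any 1 of rvWT or null B at 0 or 1 h, and 3 after median-ratio scaling.

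Ribosomal protein genes were higher by small steps, with 20 of 24 called and a median of 0.33. Rps27a was at 509.2, 471.0 and 475.0 FPKM against 328.4 and 305.1 FPKM (0.65 ± 0.08). In all 24 the rvWT libraries lay above the 5 null libraries, where 13.1% of tested genes did. The calls depend on single libraries, since 1 was called without null B at 1 h, 3 without null B at 0 h, 2 without rvWT at 0 h and 9 without rvWT at 1 h, and 11 were called after quantile normalization.

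Many p53 targets and G1 regulators were lower. Cdkn1a, the p21 inhibitor induced by p53 and by TGFβ, was at 41.2, 48.1 and 52.3 FPKM in rvWT and at 106.6 and 114.9 FPKM in null B, with 76.9 to 89.1 FPKM in null A (-1.27 ± 0.11, adjusted p = 0.000883). Ccng1, a p53-induced cyclin, was at 98.7, 90.8 and 61.0 FPKM against 163.9 and 162.1 FPKM (-0.82 ± 0.08). Of 21 p53 targets, 13 fell and 2 rose, and Plk2 was the larger of the rises (1.10 ± 0.08); 7 fell without null B at 0 h, 1 to 4 rose without 1 library, and against null A 12 fell and 6 rose. Trp53 itself was at 120.9 to 152.5 FPKM against 107.3 and 112.0 FPKM and did not pass (0.20 ± 0.07, adjusted p = 0.0672). In the G1 list 10 of 19 fell and 1 rose, with 6 falls without rvWT at 0 h or either null B library. It was not confined to inhibitors: the cyclins Ccnd3, Ccnd1 and Ccne1 fell by 0.93, 0.58 and 0.75 on the log2 scale and the CDK inhibitors Cdkn2c and Cdkn2d by 1.18 and 0.95. Ccnd3 was at 31.4, 30.7 and 26.2 FPKM against 59.5 and 59.5 FPKM. Cdk4 was the gene that rose (0.38 ± 0.06), a call lost without rvWT at 0 h or either null B library. Rrm2, a ribonucleotide reductase subunit, was at 67.7, 76.8 and 69.5 FPKM against 122.1 and 133.2 FPKM (-0.83 ± 0.05), while the replication list as a whole had 5 rises and 4 falls among 24, 0 to 2 rises without any 1 of rvWT or null B at 0 or 1 h or sim at 0 h, and 1 rise and 9 falls against null A. Mitotic genes had 8 falls and 1 rise among 24, none larger than the -0.44 of the kinase Aurka; the falls numbered 4 after median-ratio or quantile scaling and 1 to 4 without any 1 of rvWT or null B at 0 or 1 h or sim at 0 h, but 16 against null A.

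Among the 23 cholesterol-synthesis genes tested, 14 fell and 0 rose, with a median of -0.38. Insig1, the sterol-regulated retention protein, was at 19.3, 20.04 and 21.9 FPKM against 28.5 and 29.1 FPKM (-0.55 ± 0.07). Falls numbered 5 without null B at 0 h or at 1 h and 7 without rvWT at 1 h; against null A 9 fell and 2 rose. Lpl, lipoprotein lipase, was at 30.3, 26.6 and 16.1 FPKM against 149.7 and 142.3 FPKM (-2.34 ± 0.06).

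The TGFβ pathway itself moved unevenly. Of the ligands and their latency proteins, Ltbp1, which tethers latent TGFβ to the matrix, was at 30.9, 28.4 and 38.1 FPKM in rvWT and at 14.1 and 14.6 FPKM in null B, but null A held 24.1 to 24.6 FPKM (1.00 ± 0.06, adjusted p = 0.000247). Thbs1, an activator of latent TGFβ, rose by 0.83 and Tgfb2 fell by 0.58. Tgfb1 was at 9.65, 24.4 and 42.3 FPKM against 8.84 and 15.7 FPKM and did not pass (0.42 ± 0.15, adjusted p = 0.0729). In total 3 of 12 rose and 2 fell against null B, while 8 rose and 3 fell against null A. Of 9 receptors 1 rose (Acvr1) and 3 fell. Tgfbr2, the receptor that binds the ligand first, was at 32.7, 28.4 and 18.3 FPKM against 40.3 and 37.3 FPKM (-0.31 ± 0.07, adjusted p = 0.0172), and the co-receptor Tgfbr3 was at 7.03, 6.97 and 2.71 FPKM against 13.6 and 12.1 FPKM (-0.78 ± 0.06). Without either null B library 1 receptor fell and 0 rose. The SMADs had 4 falls among 7: Smad1, Smad2, Smad3 and Smad9, of -0.31 to -0.73. Smad3, the DNA-binding mediator, was at 20, 26.4 and 19.7 FPKM against 25.7 and 32.0 FPKM (-0.31 ± 0.05, adjusted p = 0.00813).

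Transcripts of Arkadia's own targets are not a readout of the degradation of their proteins, which was not measured. Smad7, whose protein Arkadia removes, was at 4.14, 22.8 and 11.96 FPKM in rvWT and at 5.74 and 23.3 FPKM in null B; it did not pass (-0.20 ± 0.09, adjusted p = 0.142). Ski was at 27.2, 50 and 33.3 FPKM against 31.2 and 47.3 FPKM and did not pass (-0.10 ± 0.09, adjusted p = 0.446). Axin2, a Wnt feedback gene, was at 1.85, 0.930 and 1.08 FPKM against 9.96 and 6.51 FPKM (-1.93 ± 0.09), and Dab2, an endocytic adaptor, at 40.1, 38.0 and 22.7 FPKM against 137.0 and 135.9 FPKM (-1.79 ± 0.06); 3 of 10 listed substrates and partners fell and 1 rose, a rise that was lost without rvWT at 0 or 1 h or without null B or sim at 0 h. Of 21 early TGFβ targets, 8 rose and 3 fell, a share of rises of 8 in 21 beside the 16.0% of all genes. Without rvWT at 0 h or at 1 h 6 rose and 2 fell, and against null A 10 rose and 2 fell. With the hour of TGFβ left out of the fit 1 rose and 1 fell. Snai1, a transcription factor of mesenchymal transition, was at 24.8, 180.6 and 93.4 FPKM in rvWT, 12.6 and 106.1 FPKM in null B, and 11.2, 81.4 and 33.01 FPKM in null A. The rvWT library was above each null library of the same time, also before TGFβ, and the difference was 0.85 ± 0.06 (adjusted p = 0.000575). Tgif1, a transcriptional repressor, rose by 0.95. Id1, a BMP target, fell by 0.74, and the BMP antagonists Grem1 and Nog moved apart, with Grem1 at 165.6, 133.3 and 142.0 FPKM against 41.5 and 44.9 FPKM (1.72 ± 0.12) and Nog lower by -1.10; 1 of 11 BMP and Id genes rose and 4 fell, and 2 fell without rvWT or null B at 0 h.

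Whether the change after TGFβ differs between rvWT and null cells was asked in a separate fit. At 1 h 6 of 11005 genes passed (0.0545%) and 760 had an unadjusted p below 0.05 (6.91%). All 6 drop out in the sense given for the antiviral genes, and 0 passed when such genes were left out. At 4 h, where the null response comes from null A alone and the rvWT response from 1 library, 23 passed (0.209%) and 3413 had an unadjusted p below 0.05 (31.0%). Of the 23, 19 were small RNA genes or such drop-outs, and the others were Hnrnpa3, Dusp5, Ogn and Timp1. Timp1, an inhibitor of matrix metalloproteinases, was at 69.7, 89.8 and 258.1 FPKM at 0, 1 and 4 h in rvWT and at 91.3, 86.5 and 82.8 FPKM in null A, a difference in response of 2.04 ± 0.07 (adjusted p = 0.0434). WT cells went from 99.8 to 305.2 FPKM over the same 4 h and sim cells from 74.0 to 188.5 FPKM. Dusp5, a nuclear ERK phosphatase, was at 5.70, 12.9 and 54.8 FPKM against 13.8, 20.4 and 22.7 FPKM (2.38 ± 0.07, adjusted p = 0.0336). Ogn, a small proteoglycan, was at 65.6, 62.2 and 18.7 FPKM against 41.5, 36.6 and 37.6 FPKM (-1.63 ± 0.06, adjusted p = 0.0434). Hnrnpa3, an RNA-binding protein, was at 16.6, 19.7 and 0.710 FPKM against 31.0, 31.0 and 26.7 FPKM (-3.18 ± 0.09). Vegfa, the angiogenic factor, was at 12.2, 50.9 and 65.9 FPKM against 14.6, 25.6 and 23.9 FPKM and did not pass (1.66 ± 0.07, adjusted p = 0.0513). The fit has 1 residual degree of freedom. On simulated data it made 16 false calls at 1 h and 35 at 4 h, past the nominal share. Those data also held many known changes, so these numbers cannot be set directly against the counts here. With so few libraries the counts do not establish a difference in response. The 4 h count was 10 to 12 at other pseudocounts, a higher filter or with no variance trend, but 432 with robust variances and 858 without drop-outs.

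**Figure D3:**
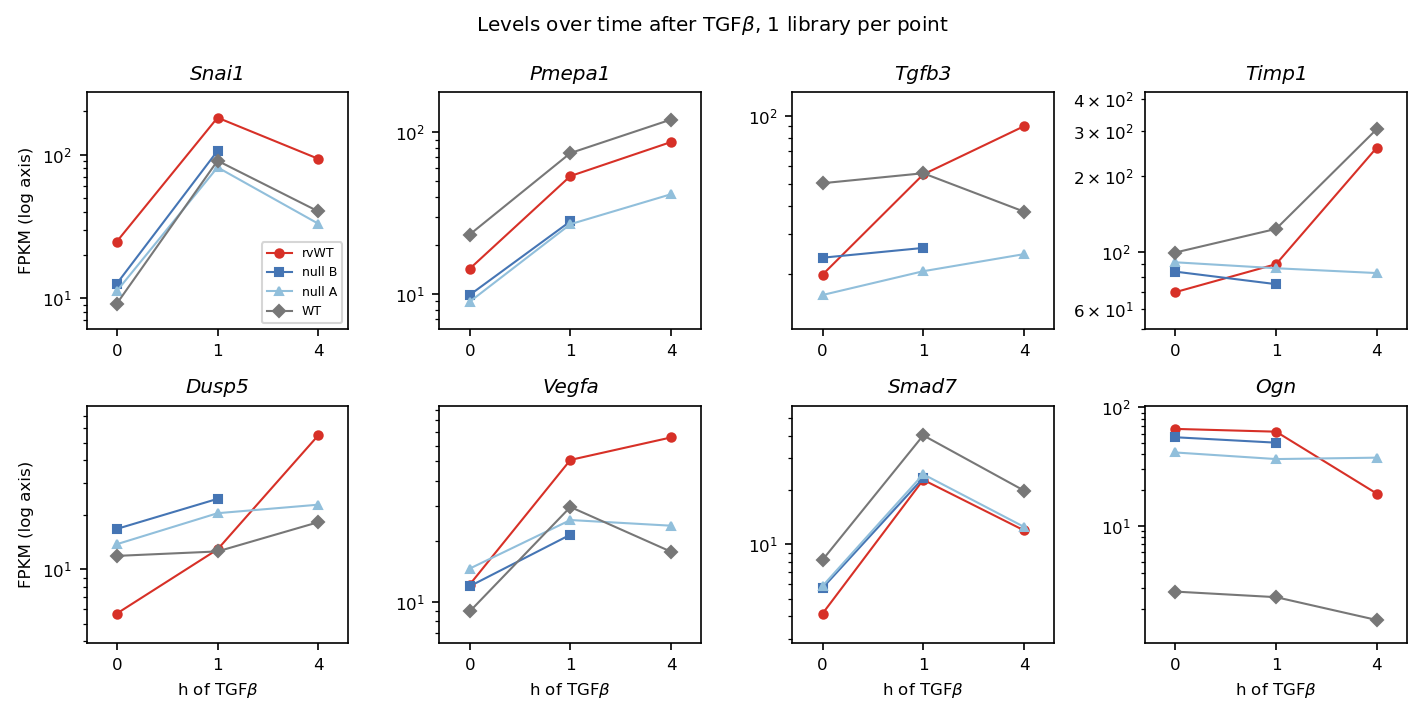
Levels of 8 genes at 0, 1 and 4 h of TGFβ in rvWT, null B, null A and WT cells, in FPKM on a log axis, 1 library per point. Timp1 and Dusp5 reach 258.1 and 54.8 FPKM at 4 h in rvWT while null A stays at 82.8 and 22.7 FPKM, and the Smad7 lines of rvWT and both null groups lie close together.

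Other lists moved less evenly. Wnt-pathway genes had 7 falls and 0 rises among 14 (8 and 3 against null A), with Rspo3, a Wnt amplifier, at 0.832, 0.444 and 0.291 FPKM against 6.02 and 4.27 FPKM (-1.86 ± 0.13). Axon-guidance genes had 12 falls and 4 rises among 29; Slit2, a secreted repellent, was at 35.7, 36.4 and 26.2 FPKM against 76.0 and 80.1 FPKM (-1.09 ± 0.04), and without null B at 0 h 6 fell and 1 rose; 1 and 2 rose without rvWT at 0 and 1 h. Hox genes had 8 falls and 1 rise among 19, and Hoxb9 was the rise (0.59 ± 0.06); 4 fell without any 1 of the rvWT or null B libraries at 0 or 1 h. Among 16 imprinted genes 6 rose and 4 fell, with Peg3 at 5.87, 5.33 and 2.84 FPKM against 22.5 and 23.1 FPKM (-1.85 ± 0.08) and Grb10, an insulin-receptor adaptor, at 59.6, 56.5 and 62.3 FPKM against 24.4 and 21.5 FPKM (1.27 ± 0.09). The SUMO pathway had 2 falls and 0 rises among 18, below the background of 22.6%, and 8 falls and 3 rises against null A. Some differences were small or missing against null A. Igfbp3, a carrier of insulin-like growth factors, was at 80.6, 69.9 and 54.1 FPKM in rvWT, at 374.5 and 332.9 FPKM in null B but at 79.9 to 96.8 FPKM in null A; the difference was -2.26 ± 0.08 against null B and -0.41 against null A (adjusted p = 7.86e-05 and 0.033). Prl2c2, a proliferin, was at 105.4, 87.9 and 68.8 FPKM against 15.1 and 15.6 FPKM in null B, and at 41.4 to 106.1 FPKM in null A; 4 of 5 proliferin genes rose against null B and 0 against null A. Near-identical proliferin copies may share reads, and leaving out genes that drop to near 0 in at least 1 library of any group left 2 rises. Igfbp4, another carrier, rose by 0.84, and 2 of 11 genes of the insulin-like growth factor system rose and 4 fell, which became 4 and 2 against null A. Replication-dependent histones had 6 falls among 12 against null B but 1 fall and 3 rises against null A. Respiratory-chain genes had 9 falls and 1 rise among 28 against null B, 5 and 11 against null A, 0 and 0 without null B at 0 h, and 1 to 3 falls without rvWT at 0 or 1 h or null B at 1 h. Immediate early genes split, with 10 rises and 8 falls among 23 (Egr1 higher by 0.92, Fos lower by -1.91), and without null B at 1 h 4 rose and 6 fell; without rvWT at 0 or 1 h 5 and 4 rose and 5 fell, and 5 fell without null B at 0 h. The NRF2, fatty-acid, glycolysis and Polycomb lists had 1, 1, 3 and 4 rises and 7, 6, 6 and 2 falls among 18, 13, 21 and 31 genes. Leaving out any 1 of rvWT or null B at 0 or 1 h lowered the falls to as few as 3, 3, 3 and 1, and the glycolysis and Polycomb rises to as few as 1.

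Markers of other cell types were few. Of the endothelial list 3 of 10 were tested, with Kdr lower and Flt1 higher, and their summed level was 6.45 to 7.03 FPKM in rvWT and 11.4 to 11.8 FPKM in null B. Haematopoietic genes summed to 8.27 to 10.3 FPKM against 13.8 to 18.0 FPKM, muscle genes to 17.0 to 27.7 FPKM against 18.9 to 19.2 FPKM, and neural genes to 24.8 to 39.7 FPKM against 19.7 to 21.6 FPKM. Adipocyte genes summed to 17.7 to 32.0 FPKM against 143.8 and 151.0 FPKM, which is mostly Lpl. Among neural genes Ncam1 and Tubb3 were higher and Nes and Map2 lower. Sox9, a chondrogenic factor, was at 4.11, 4.38 and 11.3 FPKM against 0.511 and 0.892 FPKM (1.71 ± 0.16). Pecam1, Cdh5, Ptprc, Myod1, Myog, Sox10, Pparg and Fabp4 had no value among the 12100 genes used here. Their part in the results was not tested.

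The differences were not spread evenly over the chromosomes. The median difference over 400 tested genes of chromosome 19 was -0.256, with 195 lower (48.8%) and 32 higher. Chromosome 10 had a median of 0.183 over 543 genes (33.1% higher, 9.94% lower), and chromosome 11 a median of 0.144 over 943 genes (32.1% higher, 13.0% lower). The other chromosomes had medians between -0.084 and 0.008. The same 3 chromosomes stood out at 0 h (-0.272, 0.182 and 0.143) and at 1 h (-0.258, 0.185 and 0.135). They also did so in the sim line against null B (-0.284, 0.184 and 0.126). In rvWT against null A their medians were -0.180, 0.164 and 0.235. Chromosomes 10 and 11 were again highest there, but chromosome 19 did not stand apart, with the X chromosome at -0.212 and chromosome 18 at -0.164. Between null A and null B the medians of chromosomes 19, 10 and 11 were -0.105, -0.013 and -0.111. Genes outside these 3 chromosomes had 1241 rises and 2102 falls among 9072. The part of chromosome position in the lists was not tested, and the counts outside the 3 chromosomes were 13 rises of 14 for matricellular genes, 13 of 17 for antigen presentation, 17 of 21 for ribosomal proteins, and 10 falls of 16 for p53 targets and 12 of 20 for cholesterol synthesis. Some other lists kept fewer of their calls. Outside the 3 chromosomes, fatty-acid genes had 2 falls and 1 rise among 6, and Wnt genes 3 falls and 0 rises among 9. Contractile genes had 5 rises and 4 falls among 16, and interferon-signalling genes 1 rise and 2 falls among 11. Hox genes had 0 rises and 6 falls among 10.

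**Figure D4:**
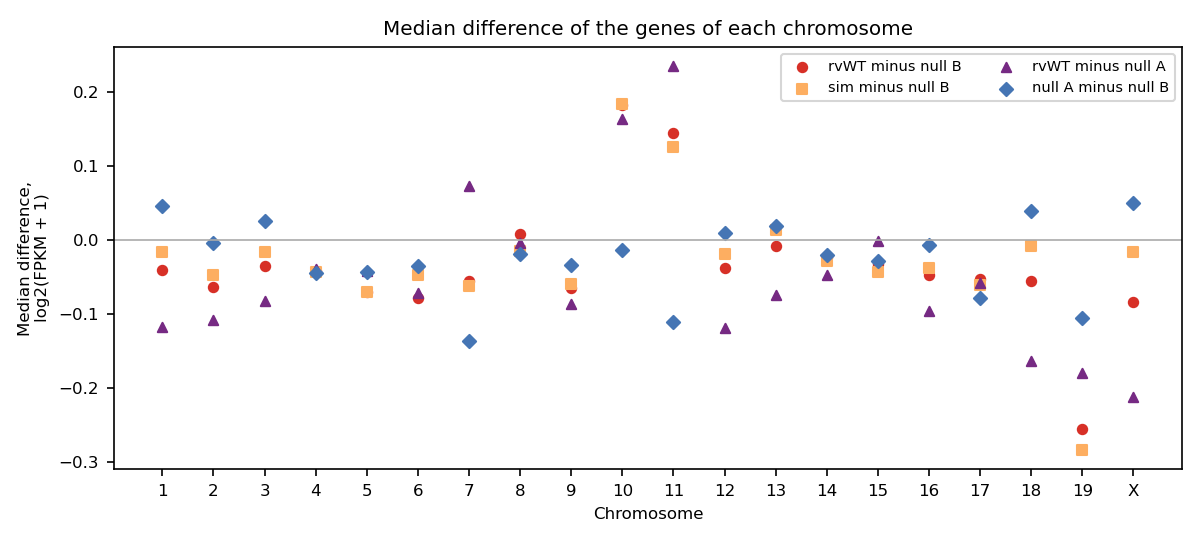
Median log2(FPKM + 1) difference over the tested genes of each chromosome for 4 comparisons, 1 point per comparison. Against null B, chromosome 19 is lowest (-0.256 for rvWT) and chromosomes 10 and 11 are highest (0.183 and 0.144) for rvWT and sim cells alike. For rvWT minus null A the X chromosome is lowest (-0.212).

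The Ark+/+ line, which carries native Arkadia, was compared with null A, and the direction of each gene was set beside that of rvWT minus null B. Among 10662 genes measured in both fits, rvWT minus null B and WT minus null A correlated weakly (Pearson r = 0.174, Spearman rho = 0.186, across genes, which are not independent). In WT minus null A 37.4% of tested genes were called higher and 30.1% lower, and 4.55% and 7.63% were so by 1 or more. Of the 171 genes higher in rvWT by 1 or more, 23 (13.5%) were also higher in WT by 1 or more and 60 (35.1%) were lower; of the 436 lower in rvWT, 180 (41.3%) were lower in WT and 29 (6.65%) were higher. The 23 are 5.81% of the 396 genes higher in WT, and the 180 are 21.9% of the 823 lower ones. Fbn1 belongs to the first class, at 35.8 to 56.5 FPKM in WT. So does Tnfrsf11b, with a difference of 3.70 in WT and 2.37 in rvWT. Mmp3, Npnt, Tspan8, Bst1 and Selp were lower in both; Mmp3 was at 0.104 to 0.383 FPKM in WT. Postn went against WT: it was at 0.168 to 1.19 FPKM in the WT libraries and above 250 FPKM in each rvWT library. Tgfbi and Grem1 did the same, with differences of -2.72 and -4.22 in WT. The mesothelial transcription factor Wt1 and Upk1b were lower in rvWT (-1.59 and -2.22) and higher in WT (1.79 and 1.66). The interferon and stress lists had the opposite balance in WT: 2 of 28 antiviral genes were higher in WT than in null A and 21 lower, and for the integrated stress response 2 of 26 were higher and 22 lower. WT and null cells are separate lines: Xist, the RNA of the inactive X chromosome, was at 1.79 to 2.75 FPKM in WT and at 20.7 to 51.3 FPKM in the rvWT and null libraries.

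**Figure D5:**
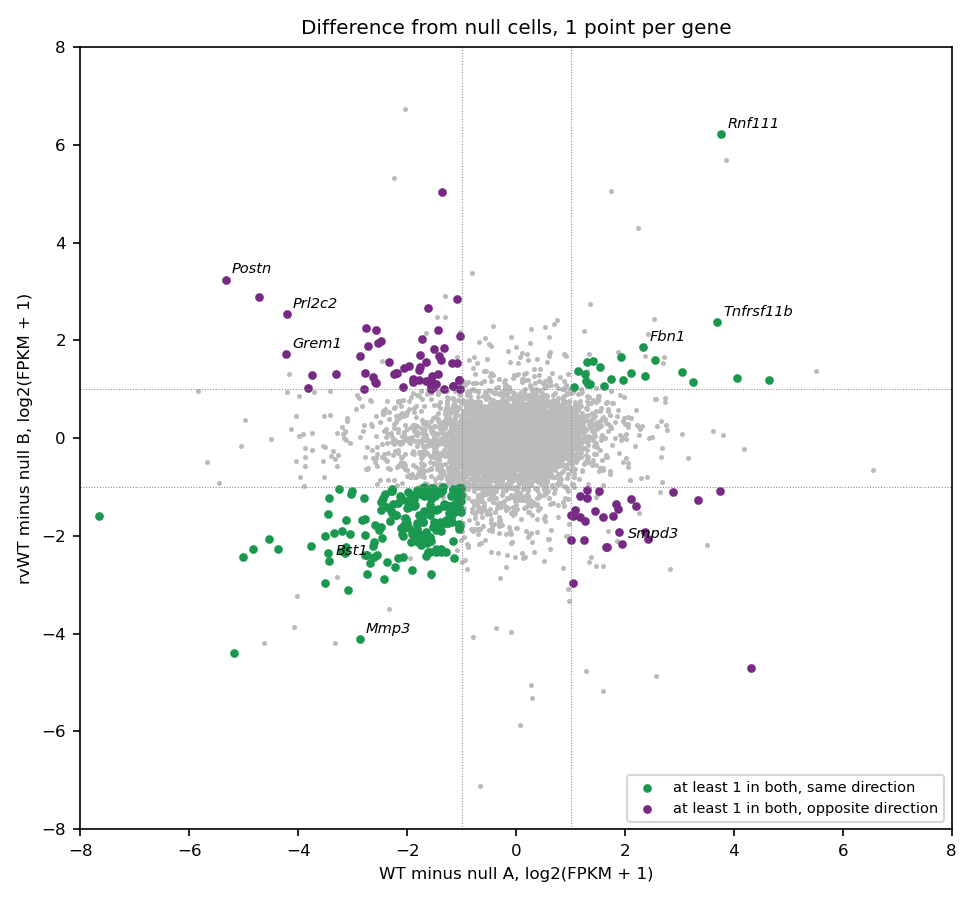
Difference of WT from null A (x axis) and of rvWT from null B (y axis) on the log2(FPKM + 1) scale, 1 point per gene; green marks genes past 1 and called in both comparisons in the same direction, purple in opposite directions. Of the green genes 180 are lower in both and 23 higher in both, and the purple ones number 60 and 29.

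The sim line also carries a retrovirus, so that infection is shared between it and rvWT. Between them 54 of 10958 genes passed (0.493%), 15 higher (0.137%) and 39 lower (0.356%) in rvWT, and 1818 (16.6%) had an unadjusted p below 0.05. The count is fragile: 1 to 10 genes passed when any 1 library of the fit was left out. Of the 34 antiviral, 17 antigen-presentation and 27 integrated-stress genes, 0 passed between rvWT and sim in either direction. With 0.493% of all genes passing, these zeros do not show that the lists are equal in both lines. Their rises above are against null cells and are not shown to be particular to wild-type Arkadia. Rnf111 itself was higher in rvWT by 0.90 ± 0.06 (adjusted p = 0.0167), so dose and sequence differ together. Cdsn was at 101.2, 102.3 and 88.6 FPKM in rvWT and at 51.4, 51.1 and 42.9 FPKM in sim, a difference of 0.99 ± 0.06 (adjusted p = 0.0131). Nov, a matricellular CCN protein, was at 62.1, 54.2 and 25.0 FPKM against 157.1, 128.5 and 68.8 FPKM (-1.33 ± 0.05, adjusted p = 0.0046). Igfbp3 was lower in rvWT than in sim (-1.02 ± 0.07, adjusted p = 0.0188) and Igf2, a growth factor, as well (-0.95 ± 0.07). Prl2c2 was at 105.4, 87.9 and 68.8 FPKM against 29.4, 28.8 and 25.3 FPKM (1.60 ± 0.09). Postn was lower in rvWT than in sim by -0.64 ± 0.04 (adjusted p = 0.0188).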

How the data were processed

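RNA of 16 libraries had been sequenced, and the authors deposited 1 table of FPKM values for 12100 genes. The submitters' processing notes name CASAVA 1.8.2, STAR 2.3.0e, SAMtools, Cufflinks 2.2.1 and the build mm9, without role or order; how reads were filtered or shared between gene copies is not given in the sources used here. Without counts the depth behind a value is unknown, no counting interval can be given, and the number of libraries sets the precision.

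Groups came from the labels. Values were compared as log2(FPKM + 1), a scale that understates changes of genes near 1 FPKM, with limma 3.58.1 (trend on mean level, R 4.3.3). Genes were kept where the libraries entering a fit averaged 1 FPKM or more. The 8 libraries of set B (rvWT, sim, null B) entered 1 fit with the hour of TGFβ as block; the replicate numbers follow that hour, so the pairing comes from the labels. It has 3 residual degrees of freedom, and the rvWT library at 4 h is set against a null value carried over by the time effect of sim. P-values were adjusted by Benjamini-Hochberg over all genes tested, with a threshold of 0.05. The response to TGFβ was tested as the interaction of line and time over rvWT, null B and null A at 0 to 4 h. Checked on simulated data with known changes, the fits of level differences held false calls near the nominal share, and the response fits went past it. The simulated noise was independent between libraries, and the effects of line and time were additive. The real libraries may break both, so the check does not give the error rate of the calls reported here.

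Named genes were Rnf111, the 15 largest rises and 15 largest falls, and up to 6 members with the smallest p per list. The leading genes of the comparisons with WT and sim and of the response were named too. Genes that drop out were not taken. A mean of at least 5 FPKM in the higher line was asked only of the largest rises and falls and of the sim comparison. Isg15, Chac1, Upk1b, Wt1, Msln, Ski, Trp53, Tgfb1, Xist and further members given as examples were named after their values were seen. The members and the gene lists were chosen with earlier results of these data known, and the mesothelial list after these values. Promoter letters and chromosomes came from RefSeq (GRCm38.p6), with 10926 of 10958 genes matched to a chromosome. Alternatives were other pseudocounts (0.1 and 5), filters, scalings, variance settings, sets of libraries and each library left out. Some genes are not reported here.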

Additional observations from a re-analysis of the deposited data

Results flagged for a closer look

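Differences between groups in the same contrast gave the results that follow, and no explanation was weighed for them. The difference in the response to TGFβ between rvWT and null cells passed for 6 genes at 1 h and for 23 genes at 4 h, in the interaction of line and time in limma, adjusted over 11005 genes. All 6 and 19 of the 23 were small RNA genes or drop out in at least 1 library of any group. This fit has 1 residual degree of freedom and 1 rvWT library per time. Its false calls on simulated data went past the nominal share, so a difference in response is not established. At 4 h the interaction was -3.18 for Hnrnpa3, 2.38 for Dusp5, -1.63 for Ogn and 2.04 for Timp1 on the log2(FPKM + 1) scale. The rvWT value at 4 h is 1 library in each case. Between rvWT and sim cells, which carry different forms of Arkadia in the same null background, 54 genes passed.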

How the results depend on the processing

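Of the 135 genes named for rvWT against null B, 93 kept direction and side of the threshold under every alternative run. The replicate block matters: without it 2200 genes passed (788 higher, 1412 lower) in place of 4230, and 7 in place of 54 for rvWT against sim. With a log2 size of at least 1 added, 651 passed. Leaving out each library in turn gave 1946 to 4249 genes for rvWT against null B (1946 and 2006 without null B at 0 and 1 h, 2595 and 2703 without rvWT at 0 and 1 h) and 1 to 10 for rvWT against sim (8, 4 and 10 without rvWT at 0, 1 and 4 h, and 1 and 2 without sim at 0 and 1 h), where robust variances gave 93, leaving out small RNA genes 83 and leaving out genes that drop out 89, the last chosen after seeing the data. For the response at 1 h the count of 6 became 1 at a pseudocount of 0.1, 3 with a mean of at least 5 FPKM, 10 with median-ratio scaling, 18 with robust variances, 2 without small RNA genes and 0 without drop-outs. At 4 h the count of 23 became 10 and 11 at pseudocounts of 0.1 and 5, 12 with a mean of at least 5 FPKM, 12 with no trend, 432 with robust variances, 478 without small RNA genes and 858 without drop-outs. For the response, 13 fits with 1 library left out could not be made. Either no residual degree of freedom was left or the contrast could no longer be estimated. The others left out libraries that do not enter the contrast, so their counts of 6 and 23 were fixed and say nothing about stability. With null A in place of null B the sign turned for Col11a1 (0.67), Ifitm2 (0.40), Ifnar2 (0.10) and Ski (0.18), and for Ski also without null B at 0 h (0.008). The cause of these changes was not tested. Depth is unknown, and genes with a mean under 1 FPKM were tested only in the alternative without a filter.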

Other observations

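Chromosome medians also differed between WT and null A, where they ran from -0.476 for chromosome 14 to 0.55 for chromosome 11. Among genes with a mean of 10 FPKM or more, the rvWT minus null B medians were -0.292 for chromosome 19, 0.188 for chromosome 10 and 0.164 for chromosome 11. Replication-dependent histone transcripts, most of which lack poly(A) tails, summed to 35.7 to 42.9 FPKM in rvWT, 79.4 to 85.6 FPKM in null B and 35.8 to 38.7 FPKM in null A, so that null B stood apart from the other null cells.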
